A study of Arabidopsis thaliana with 4 samples.

Results

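The genes described here make salicylic acid in Arabidopsis thaliana, relay the signal, or serve as its customary readout. They are the rows of the deposited expression table for ICS1, EDS5, PBS3, EDS1, PAD4, ALD1, FMO1, PR1, PR2 and PR5, chosen by gene identifier, which makes 10 genes of 32548. All 10 were found and all 10 passed the filter on low values, as did 23256 genes in all. RNA from whole seedlings 10 days old was sequenced as paired reads of 150 bases. The plants grew on Murashige and Skoog medium at 22 °C with 16 h of light and 8 h of dark. The groups were 2 libraries of the wild type, ecotype Col-0, and 2 libraries of bdt1-/- in the Col-0 background, which the submitters call biological replicates. For the mutant, titles and genotype read bdt1 while the source label has btl1-/-. No allele, mutagen or number of pooled seedlings is given in the sources used here, so whether the mutant line rests on 1 allele is not known.

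Salicylic acid is a small phenolic hormone that plants accumulate when biotrophic pathogens attack. Most of it derives from isochorismate, which isochorismate synthase makes from chorismate in the chloroplast. EDS5 exports salicylic acid or its precursor to the cytosol, and PBS3 joins isochorismate to glutamate as a step toward free salicylic acid. The lipase-like proteins EDS1 and PAD4 act as partners upstream and drive its synthesis, and the ALD1 and FMO1 enzymes make N-hydroxypipecolic acid, a second mobile signal of systemic resistance. Perception by NPR proteins and TGA transcription factors turns on the pathogenesis-related genes PR1, PR2 and PR5, whose products are secreted.

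The recovered totals ran from 22914893 to 27435729 reads per library. AT4G11560, a gene for a protein with a bromo-adjacent homology domain, is tied to the name BDT1 by background knowledge and not by the tables. Its normalised read count was 1135 and 1117 in wild type and 313 and 324 in bdt1, so it was 3.53-fold lower in the mutant (adjusted p = 3.9e-05 by limma). Shoot and root markers were both present. RBCS1A, a small subunit of Rubisco, lay between 274500 and 311500 normalised reads, and PYK10, a root beta-glucosidase, between 42400 and 45710. The senescence marker SAG12 had 0 reads in all 4 libraries. RBCS1A, PYK10 and SAG12 come from marker lists and are named with their values known. Because whole seedlings were sampled, a change in the number of cells that express a gene and a change in RNA per cell cannot be told apart.

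The sequences below are the 250 bases upstream of the annotated start of PR2 and PR5, shown because PR2 passed the test described below and PR5, another secreted readout gene, did not. They were read from the RefSeq genome TAIR10.1, 5′ to 3′ on the strand of the gene, and the submitters name TAIR10 as their build. Capitals mark TTGAC, the core of the W-box that WRKY factors bind, on either strand (GTCAA on the other).
PR2 upstream (chr3:21189968-21190217, minus strand): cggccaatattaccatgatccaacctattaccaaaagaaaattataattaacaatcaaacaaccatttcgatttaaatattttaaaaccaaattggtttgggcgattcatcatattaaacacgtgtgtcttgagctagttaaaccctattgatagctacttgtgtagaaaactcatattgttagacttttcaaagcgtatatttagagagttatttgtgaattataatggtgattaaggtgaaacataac
PR5 upstream (chr1:28177420-28177669, plus strand): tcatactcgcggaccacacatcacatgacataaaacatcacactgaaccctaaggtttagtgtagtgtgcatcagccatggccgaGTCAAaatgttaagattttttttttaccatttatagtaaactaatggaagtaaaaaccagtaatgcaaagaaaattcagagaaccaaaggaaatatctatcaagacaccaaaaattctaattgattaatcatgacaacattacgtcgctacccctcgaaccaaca
PR5 holds the core 1 time on the opposite strand, and these letters are not in the window of PR2. The core TGACG, which TGA factors bind, was searched on both strands and is in none of the 9 windows read. W-box cores are in 3 of these 9 windows (EDS5, EDS1 and PR5), against 44.9% of 27442 windows of the same length upstream of protein-coding genes, and TGACG is in 18.6% of those. The 2 motifs share the letters TGAC and can overlap. A match or its lack is a description of these letters and says nothing of binding.

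Of the 10 genes, PR2 rose in bdt1 and the other 9 did not pass the test. The test was limma on log2(normalised count + 1), with p-values adjusted over all 23256 tested genes by the Benjamini-Hochberg method and a threshold of 0.05. By the same rule 1.2% of tested genes were higher and 0.856% lower, or 2.06% in either direction. On read counts recovered from the table, the quasi-likelihood test of edgeR also called PR2 alone among the 10. It called 1.45% of tested genes higher and 1.12% lower, 2.57% in all. The log2 fold change was positive in 9 of the 10 genes, with a median of 0.24, and in 50.7% of all tested genes, with a median of 0.00. Without wild-type replicate 1 it was negative in EDS5 (-0.10), PAD4 (-0.04), ALD1 (-0.01) and FMO1 (-0.04). A log2 fold change on this scale understates the change of low genes. With 2 libraries in each group, an exact two-sided permutation test of a single gene cannot go below p = 0.333, so every call rests on the spread that limma shares between genes.

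**Figure D1:**
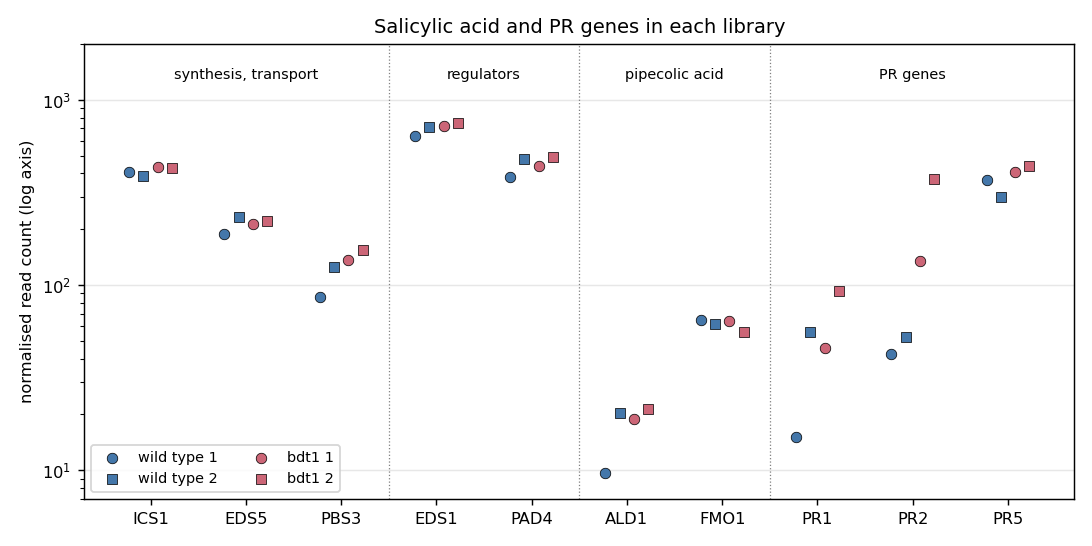
Normalised read count (log axis) of each of the 10 genes in the 4 libraries, grouped by role, with circles for replicate 1 and squares for replicate 2. PR2 is the gene whose bdt1 points, at 134 and 374, stand well above its wild-type points at 42.4 and 52.5.

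None of the 3 genes of synthesis and transport passed the test. ICS1 (AT1G74710, chr1:28070295-28074177, plus strand) encodes isochorismate synthase, the enzyme that starts the route to most of the salicylic acid formed in defence. It was at 408 and 389 normalised reads in wild type and 432 and 427 in bdt1. Both bdt1 libraries were above both wild-type libraries by a small margin, and the log2 fold change of 0.11 (SE 0.09, adjusted p = 0.6 by limma) did not pass. The 95% interval ran from 0.935-fold to 1.24-fold.

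EDS5 (AT4G39030, chr4:18185437-18189224, plus strand), the chloroplast exporter of salicylic acid or its precursor, was at 188 and 233 in wild type and 213 and 222 in bdt1. Both bdt1 values lay between the wild-type values, with a log2 fold change of 0.05 (SE 0.14, adjusted p = 0.89 by limma) and an interval from 0.829-fold to 1.3-fold. EDS5 overlaps AT4G39040 on the opposite strand by 213 bases, and because the strandedness of the counting is not given, reads of that stretch cannot be assigned to either gene.

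PBS3 (AT5G13320, chr5:4267456-4271064, plus strand), the enzyme that couples isochorismate to glutamate, was at 86.0 and 125 in wild type and 136 and 155 in bdt1. The genotypes did not overlap, but the gap within wild type was wider than the step from the higher wild-type library to the lower bdt1 library. The log2 fold change was 0.48 (SE 0.21, adjusted p = 0.3 by limma), with an interval from 1.003-fold to 1.94-fold. Without wild-type replicate 2 the edgeR test on recovered counts called it higher, at a log2 fold change of 0.76. With 1 wild-type library left, the gap within wild type does not enter the spread of that fit.

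EDS1 and PAD4 encode the lipase-like partners that act upstream of synthesis. EDS1 (AT3G48090, chr3:17755329-17758147, minus strand) was at 634 and 716 in wild type and 718 and 753 in bdt1. The lower bdt1 library was almost equal to the higher wild-type library, and the log2 fold change was 0.13 (SE 0.08, adjusted p = 0.51 by limma; interval 0.954-fold to 1.25-fold). PAD4 (AT3G52430, chr3:19431095-19434450, plus strand) was at 384 and 476 in wild type and 440 and 489 in bdt1. Its genotypes overlapped, with a log2 fold change of 0.12 (SE 0.12, adjusted p = 0.67 by limma; interval 0.898-fold to 1.31-fold).

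Neither gene of the pipecolic acid branch passed the test. ALD1 (AT2G13810, chr2:5768417-5772266, plus strand), the aminotransferase that starts this branch, was at 9.65 and 20.4 in wild type and 19.0 and 21.5 in bdt1, from 9, 22, 18 and 22 recovered reads. Wild-type replicate 1 stood below the other 3 libraries, and the interval of the change was wide, from 0.702-fold to 2.82-fold (log2 fold change 0.49, SE 0.44, adjusted p = 0.63 by limma). FMO1 (AT1G19250, chr1:6650476-6653195, minus strand), the monooxygenase that hydroxylates pipecolic acid, was at 64.5 and 61.4 in wild type and 64.2 and 55.8 in bdt1. It was the 1 gene of the 10 with a negative log2 fold change, -0.07 (SE 0.22, adjusted p = 0.9 by limma; interval 0.673-fold to 1.34-fold), and its genotypes overlapped. Without bdt1 replicate 2 the sign turned (0.03).

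Among the PR genes, PR2 (AT3G57260, chr3:21188397-21189967, minus strand; named BGL2 in the annotation) encodes a secreted beta-1,3-glucanase that cuts cell wall glucans. It was at 42.4 and 52.5 normalised reads in wild type and 134 and 374 in bdt1, from 40, 57, 126 and 381 recovered reads. Both bdt1 libraries were high, but bdt1 replicate 2 held 2.79 times the count of replicate 1, a gap wider than that of 96.9% of tested genes. PR2 rose by a log2 fold change of 2.22 (SE 0.40, adjusted p = 0.033 by limma), or 4.67-fold with an interval from 2.47-fold to 8.82-fold. The interval uses the spread that limma shares between genes, and with limma's trend left out the SE was 0.59. On recovered counts the edgeR test gave a log2 fold change of 2.42 (adjusted p = 0.022).

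PR1 (AT2G14610, chr2:6241640-6242541, minus strand), a small secreted cysteine-rich protein and the most used marker of salicylic acid signalling, was at 15.2 and 55.8 in wild type and 45.7 and 93.2 in bdt1. Wild-type replicate 2 was above bdt1 replicate 1, so the genotypes overlapped. The gap between the wild-type libraries, 3.66-fold, was wider than that of 97.9% of tested genes, and that between the bdt1 libraries, 2.04-fold, wider than that of 94.1%. The log2 fold change of 1.13 (SE 0.56, adjusted p = 0.37 by limma) did not pass, and its interval ran from 0.9-fold to 5.3-fold, so neither no change nor a change as large as that of PR2 lies outside it. PR1 was 1.17-fold of wild type without wild-type replicate 1 and 4.09-fold without wild-type replicate 2. Without the latter the edgeR test on recovered counts called PR1 higher. That fit leaves 1 wild-type library, so the gap between the wild-type libraries does not enter its spread. Without bdt1 replicate 1 PR1 was 3.1-fold and without bdt1 replicate 2 it was 1.54-fold.

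PR5 (AT1G75040, chr1:28177670-28179022, plus strand), a thaumatin-like protein, was at 371 and 300 in wild type and 408 and 440 in bdt1. The genotypes did not overlap, and the difference was small beside that of PR2, with a log2 fold change of 0.34 (SE 0.12, adjusted p = 0.21 by limma; interval 1.05-fold to 1.54-fold). PR5 was called higher without wild-type replicate 1, at a log2 fold change of 0.50 by limma and by edgeR on recovered counts. Both fits leave 1 wild-type library, so the gap within wild type does not enter their spread.

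**Figure D2:**
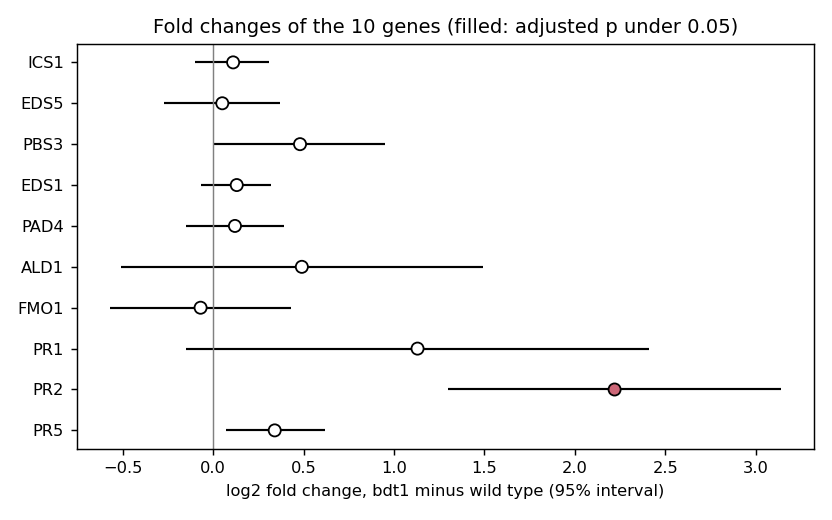
Log2 fold change (bdt1 minus wild type) of the 10 genes with its 95% interval from limma; the filled point passed the test. The interval of PR2 runs from 1.3 to 3.14, and those of ICS1, EDS5, EDS1, PAD4, ALD1, FMO1 and PR1 include 0.

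PR2 kept a positive log2 fold change in all 19 alternative settings, from 1.48 to 2.96, and passed the test in 13 of them. It was not called by limma-voom on the recovered counts (adjusted p = 0.12), with a pseudocount of 0.1 (0.056) or with limma's trend left out (0.34). Leaving out a library moved the size as well as the call. PR2 was 7.78-fold higher without bdt1 replicate 1 (adjusted p = 0.48 by limma) and 2.8-fold without bdt1 replicate 2 (0.70), settings in which limma called 0 genes of all tested, with 1573 and 1611 at an unadjusted p under 0.05. It was 5.18-fold without wild-type replicate 2 (0.088) and kept its call without wild-type replicate 1, at 4.2-fold. The edgeR test on recovered counts called PR2 in each of its 5 settings, that is with all libraries and without each in turn. A fit that leaves 1 library in a genotype assumes that this library varies like the rest. Without either bdt1 library, the 2.79-fold gap of PR2 between them does not enter the spread, so these calls do not measure it.

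**Figure D3:**
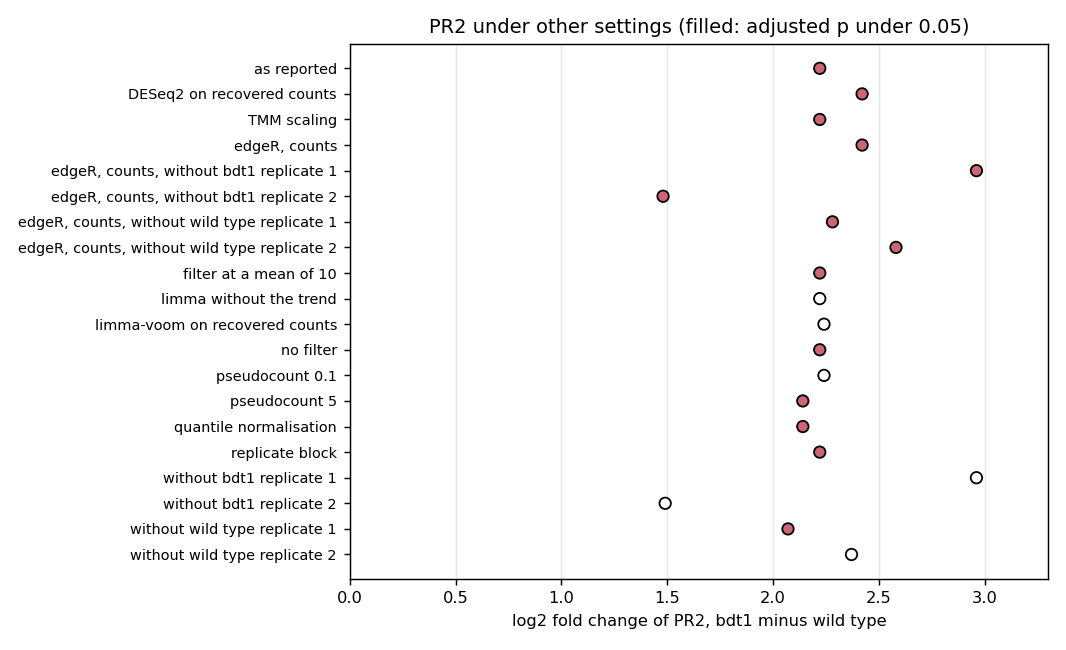
Log2 fold change of PR2 (bdt1 minus wild type) as reported and under 19 alternative settings; filled points have an adjusted p under 0.05. All points lie between 1.48 and 2.96, and the outermost belong to fits without 1 of the bdt1 libraries.

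The 4 libraries took a similar order in most of the genes. Wild-type replicate 1 was the lowest library in 7 of the 10, against 27.6% of tested genes, and bdt1 replicate 2 the highest in 7, against 24.5%. Both held at once in 6 genes (PBS3, EDS1, PAD4, ALD1, PR1 and PR2), against 11% of all tested genes. Both bdt1 libraries were above both wild-type libraries in 5 of the 10 (ICS1, PBS3, EDS1, PR2 and PR5), against 25.2% of tested genes, and in none were both below, against 23.7%; the genotypes did not overlap in 48.9% of tested genes. These counts describe a list whose genes are known to respond together, so they are not separate observations.

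The order of levels was read per kilobase of exon, since a longer transcript yields more reads. In wild type PR5 was highest at 306 ± 46.0 normalised reads per kilobase (SD, n = 2), followed by EDS1 at 264 ± 22.9, PAD4 at 191 ± 28.8 and ICS1 at 183 ± 6.19. EDS5 came next at 93.3 ± 14.1. PBS3, PR1, FMO1 and PR2 lay between 32.1 and 40.3, and each neighbour in that order overlapped the next. ALD1 was lowest at 9.56 ± 4.83. PR5 overlapped EDS1, and PAD4 overlapped ICS1, over the wild-type libraries. In bdt1 the order was PR5, EDS1, PAD4, ICS1, PR2, EDS5, PR1, PBS3, FMO1 and ALD1. Over the bdt1 libraries PAD4 overlapped ICS1, ICS1 overlapped PR2, PR2 overlapped EDS5, EDS5 overlapped PR1 and PR1 overlapped PBS3, so the order among these neighbours is not settled. PR2 moved from the ninth place, at 32.1 ± 4.81 normalised reads per kilobase (SD, n = 2), to the fifth, at 172 ± 115. Its bdt1 libraries, at 90.7 and 253 per kilobase, spanned the levels of PAD4, ICS1 and EDS5.

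Several of the genes have close relatives in the genome. PRB1 (AT2G14580, chr2:6225351-6226227, minus strand), a basic PR1-like protein, lies 15412 bases from PR1 and its coding sequence is 83.5% identical. PRB1 was at 245 and 211 normalised reads in wild type and 77.0 and 87.2 in bdt1, with no overlap. It fell by 1.46 on the log2 scale (adjusted p = 0.0043 by limma, SE 0.16), which is 2.75-fold lower. The difference between the changes of PRB1 and PR1 was not tested.

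BG3 (AT3G57240), a beta-1,3-glucanase gene 5252 bases from PR2 whose coding sequence is 75% identical, was at 16.9 and 17.4 in wild type and 20.1 and 25.5 in bdt1 (log2 fold change 0.38, SE 0.35, adjusted p = 0.64 by limma). BG1 (AT3G57270), the glucanase gene on the other side of PR2, had 0 and 2 recovered reads in wild type and 0 in both bdt1 libraries and was not tested. AT3G48080, an alpha/beta-hydrolase gene 138 bases from EDS1 with an 84% identical coding sequence, was at 69.9 and 83.7 in wild type and 85.6 and 116 in bdt1 (log2 fold change 0.37, SE 0.22, adjusted p = 0.44 by limma). No stretch of 150 bases is shared between the coding sequences of any of these pairs, and the longest shared run, 44 bases, is between EDS1 and AT3G48080. How the authors' counting treated reads that fit more than 1 gene is not given in the sources used here.

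**Figure D4:**
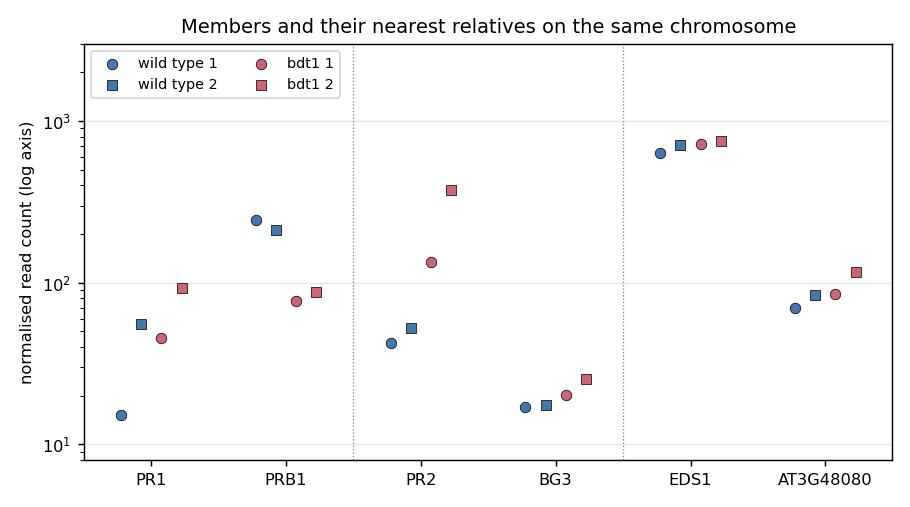
Normalised read count (log axis) of PR1, PR2 and EDS1 beside a relative of each on the same chromosome, in the 4 libraries. PRB1 is lower in both bdt1 libraries (77.0 and 87.2) than in both wild-type libraries (245 and 211), while BG3 lies between 16.9 and 25.5.

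ICS2, a minor isochorismate synthase, was at 197 and 210 in wild type and 178 and 232 in bdt1 (log2 fold change 0.00, SE 0.15, adjusted p = 1 by limma). SAG101, a further partner of EDS1, had a log2 fold change of 0.03 (SE 0.12, adjusted p = 0.92 by limma) and AGD2, the housekeeping relative of ALD1, one of -0.06 (SE 0.05, adjusted p = 0.61 by limma). AT2G21340, a gene of the MATE efflux family with a coding sequence 69.9% identical to EDS5, was at 1802 and 1992 in wild type and 1728 and 1715 in bdt1 (log2 fold change -0.14, SE 0.07, adjusted p = 0.35 by limma).

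Beyond the 10 members, 7 lists of salicylic acid genes and of PR proteins with their relatives held 66 further genes, of which 63 were tested. Of these, 4 rose and 2 fell, where 1.2% of all tested genes were called higher and 0.856% lower. The median log2 fold change was -0.02 beside 0.00 over all tested genes. The edgeR test called 6 higher and 2 lower. Of the limma calls, OSM34 among the rises and PRB1 among the falls come from the list of PR proteins and relatives.

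Regulators upstream of synthesis held 2 of the rises. ACD6, an ankyrin-repeat membrane protein that promotes salicylic acid accumulation, was at 1193 and 1362 in wild type and 2924 and 3445 in bdt1. The 2 genotypes were far apart relative to the spread within them, with a log2 fold change of 1.32 (SE 0.09, adjusted p = 4.9e-04 by limma), or 2.49-fold. NDR1, a membrane-anchored component of resistance signalling, rose from 120 and 131 to 200 and 212, 1.64-fold (log2 fold change 0.71, SE 0.14, adjusted p = 0.046 by limma). Its call was lost under DESeq2 (0.099) and 4 other settings with all libraries, and without wild-type replicate 2 at a log2 fold change of 0.78. Without bdt1 replicate 1 or 2 it was lost both by limma, at 0.76 and 0.67, and by the edgeR test on recovered counts, at 0.75 and 0.67. Limma lost the calls of all genes in these settings, so its loss there is not particular to NDR1. SARD1, a transcription factor that activates ICS1 and is named here after its values were seen, was at 23.6 and 58.4 in wild type and 65.6 and 99.0 in bdt1. Its log2 fold change of 1.09 missed the threshold (SE 0.41, adjusted p = 0.24 by limma). CBP60g of the same list, also named with its values known, went the other way. It was at 209 and 399 in wild type and 163 and 244 in bdt1 (log2 fold change -0.53, SE 0.29, adjusted p = 0.4 by limma). Of the 18 genes in this list, with EDS1 and PAD4, 10 had a positive and 8 a negative log2 fold change, with a median of 0.01.

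DMR6, a hydroxylase that inactivates salicylic acid, was the called gene among 8 tested genes of modification and breakdown. It was at 318 and 342 in wild type and 588 and 628 in bdt1, 1.84-fold higher (log2 fold change 0.88, SE 0.09, adjusted p = 0.0034 by limma). PAL3 was the called gene among 10 of synthesis and transport, which include 4 phenylalanine ammonia-lyases, enzymes at the entry to phenylpropanoids and to a minor route to salicylic acid. It was at 898 and 837 in wild type and 545 and 536 in bdt1 and fell by 0.68 on the log2 scale (adjusted p = 0.0044 by limma, SE 0.08). The log2 fold changes of PAL1, PAL2 and PAL4, which did not pass, were -0.19, -0.16 and 0.00.

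OSM34, a thaumatin-like relative of PR5, rose from 1027 and 1198 to 1744 and 1527, 1.47-fold (log2 fold change 0.56, SE 0.09, adjusted p = 0.025 by limma). It was the second rise after PR2 among 8 tested PR proteins and relatives, where PRB1 was the fall. PR3, a basic chitinase, and the transcription factor gene WRKY54 were called higher by the edgeR test on recovered counts (adjusted p = 0.042 and 0.038) and not by limma (0.057 and 0.051). Their log2 fold changes by limma were 0.47 and 0.86. Most of the list that holds WRKY54 went the other way: of its 9 genes, 3 had a positive and 6 a negative log2 fold change, with a median of -0.25. None of 14 genes of perception, with the NPR and TGA families, none of 6 tested genes of the pipecolic acid branch and systemic resistance and none of 9 WRKY and redox genes of the output passed limma. The receptor NPR1 had a log2 fold change of 0.11 (adjusted p = 0.56 by limma). NPR1, PAL1, PAL2, PAL4, PR3 and WRKY54 are likewise named with their values known. Without bdt1 replicate 1 or replicate 2, limma lost the calls of all genes, those of ACD6, DMR6, PAL3, OSM34 and PRB1 included. The log2 fold changes were then 1.43 and 1.2 (ACD6), 0.92 and 0.83 (DMR6), -0.69 and -0.67 (PAL3), 0.46 and 0.65 (OSM34) and -1.37 and -1.55 (PRB1). The edgeR test on recovered counts kept the calls of these named genes. With all 4 libraries, limma without the trend also lost these calls, with adjusted p = 0.14 for ACD6, 0.13 for DMR6, 0.14 for PAL3, 0.31 for OSM34 and 0.11 for PRB1.

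**Figure D5:**
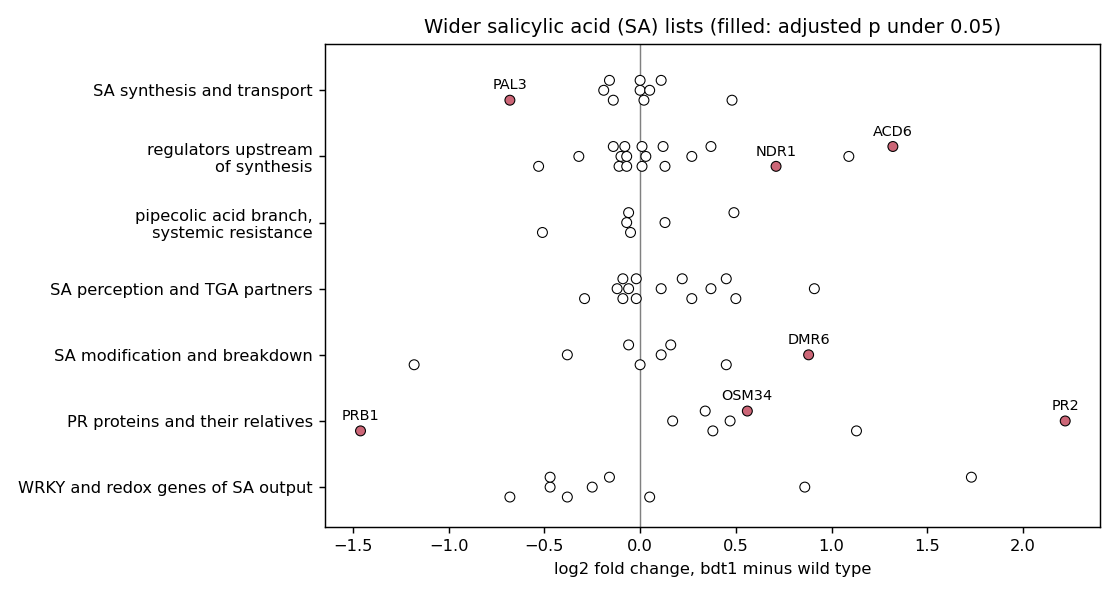
Log2 fold change (bdt1 minus wild type) of every tested gene in the 7 lists of salicylic acid genes and PR proteins with their relatives, the 10 members included. Filled and named points passed the test. PR2 at 2.22 and PRB1 at -1.46 are the outermost points.

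Markers of tissue and age were read beside these changes. Of 5 leaf markers 2 were called lower, against 0.856% of tested genes. The chlorophyll-binding protein genes LHCB1.3 and LHCB1.2 fell by 0.46 and 0.45 on the log2 scale (adjusted p = 0.03 and 0.037 by limma). LHCB1.4 and RCA, named with their values known, had log2 fold changes of 0.14 and -0.12 (adjusted p = 0.55 and 0.47 by limma). The summed level of the list, made up mostly of RBCS1A, LHCB1.3 and RCA, was 722700 and 720500 in wild type and 621300 and 630200 in bdt1. None of 7 root markers passed, and their sum, nearly all of it PYK10, was 46650 and 43350 in wild type and 44800 and 45630 in bdt1. The log2 fold change was positive in 6 of the 7, against 50.7% of tested genes, with a median of 0.16. Both bdt1 libraries were above both wild-type libraries in 3 of the 7, against 25.2% of tested genes. None of the 5 tested senescence markers passed, with sums of 12800 and 15940 in wild type and 14460 and 15230 in bdt1, made up mostly of AALP and SAG21. The less abundant ones had log2 fold changes of -1.23 (NAP), -0.60 (ORE1) and 0.89 (SAG13), values known when they were named. None of 5 flower organ markers passed, with sums of 260.9 and 232.7 in wild type and 385 and 304.3 in bdt1, made up mostly of SEP3. All 5 had a positive log2 fold change, against 50.7% of tested genes. AP1 rested on 1, 2, 5 and 5 recovered reads, and the genotypes overlapped in AG and AP3. SEP3, AP1, AG and AP3 are named with their values known. The part of these shifts in the PR gene values was not tested.

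Likeness of pattern was measured as the root mean square difference of centred log2 values over the 4 libraries, among 20354 genes with a mean of at least 10. Nearest to PR1 were PAP24, a purple acid phosphatase (difference 0.189), AT2G20142, a TIR-domain gene (0.199), and WAK3, a wall-associated kinase (0.2). AT2G20142 was at 21.6, 60.3, 50.9 and 88.2 in wild-type replicates 1 and 2 and bdt1 replicates 1 and 2, the same order of libraries as in PR1. Nearest to PR2 were AT2G28490, a cupin gene (0.116), AT3G13130 (0.301) and AT4G33930, a cupredoxin gene (0.353). The log2 fold changes of AT2G28490 (2.13, adjusted p = 0.11 by limma) and AT3G13130 (1.84, adjusted p = 0.082 by limma) did not pass. AT4G33930, the least alike of the 3, was at 4.30 and 9.27 in wild type and 28.6 and 49.0 in bdt1 and rose by a log2 fold change of 2.38 (adjusted p = 0.046 by limma). Nearest to PR5 were AT5G63100, a methyltransferase gene (0.016), AT1G65130, a ubiquitin hydrolase-related gene (0.017), and the kinase gene WNK3 (0.021), none of which passed. The values were centred but not scaled, so differences are smaller for a reference gene that varies little, such as PR5. They are not comparable between PR1, PR2 and PR5. The likeness is a description over 4 libraries, and a change in bdt1 like that of the reference gene is part of how these genes were chosen.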

How the data were processed

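The values the authors deposited are a signal, 1 normalised read count per gene and library. Per the submitters' processing notes, HISAT2 2.2.0, edgeR and TAIR10 were used; for the read counter, annotation version and strandedness, nothing is stated. This deposited signal has the form of counts that the authors adjusted to 1 common library size by matching negative binomial quantiles. Whole read counts were sought that invert this adjustment, with a dispersion of 0.00544 fitted to the low values. Adjusted again, these counts gave the deposited normalised value to within 0.001 for 100% of values. The inversion and the limma test were also tried on simulated counts with the same dispersion for every gene. That trial does not cover genes whose replicates differ as much as those of PR1 or PR2.

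Genes whose normalised count averaged 1 or more entered a limma 3.58.1 fit in R 4.3.3, on log2(normalised count + 1), using the trend of variance on mean and no block; 95% intervals come from this fit. P-values were adjusted over all tested genes by the Benjamini-Hochberg method. The alternatives were edgeR 4.0.16 (quasi-likelihood), DESeq2 1.42.0 and limma-voom on recovered counts, TMM scaling, quantile normalisation, pseudocounts of 0.1 and 5, no filter and a filter at a mean of 10, limma without the trend, a replicate block, and each library left out, with the filter applied again to the rest. Groups came from the sample titles.

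Positions, exon lengths, coding sequences and upstream windows came from the RefSeq annotation of TAIR10.1, which matched all 32548 identifiers. Upstream windows are reported for 9 of the 10 genes; the other is not reported here. Coding sequences were aligned end to end with Biopython 1.88. The members and lists were chosen with earlier results of these data known. Named genes are the members, their closest relatives, called genes of the lists and the 3 genes nearest in pattern to PR1, PR2 and PR5; any other is said to have been picked with its values known.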

Additional observations from a re-analysis of the deposited data

How the results depend on the processing

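With all 4 libraries, the counts of called genes, 280 higher and 199 lower, moved by over 1.5 times in 3 settings. Limma without the trend called 42 and 6, and a pseudocount of 0.1 called 123 lower. The replicate block called 901 and 917, and PR1 joined PR2 among the members (2 called; PR1 log2 fold change 1.13, adjusted p = 0.018). The labels do not say that a shared number marks a shared culture. The differences between replicates 2 and 1 in the 2 genotypes correlated at -0.012 over tested genes. In the members this difference had the same sign in both genotypes, except in PR5 (log2 -0.31 in wild type and 0.11 in bdt1). The share of tested genes with the same sign was not counted. In some members the difference was small, as in ICS1 (-0.07 in wild type and -0.02 in bdt1). It was 1.81 in wild type and 1.01 in bdt1 for PR1, and 0.30 and 1.47 for PR2. Whether libraries of the same number share a batch was not tested. No member was called with limma-voom, with a pseudocount of 0.1 or without the trend (0 in each). Leaving out a library gave 0 to 540 higher, 0 to 776 lower and 0 to 2 members by limma. For edgeR on recovered counts it gave 942, 1217, 290 and 286 higher and 1326, 1270, 228 and 314 lower without wild-type replicates 1 and 2 and bdt1 replicates 1 and 2, and 1 to 3 members, where a lone library is assumed to vary like the rest. PBS3 was called higher by edgeR without wild-type replicate 2 (log2 fold change 0.76), and PR5 without wild-type replicate 1. The sign of the change turned without wild-type replicate 1 for ALD1 (-0.01 by limma), EDS5 (-0.10 by limma and edgeR) and PAD4 (-0.04 by limma, -0.03 by edgeR), and without bdt1 replicate 2 for FMO1 (0.03 by both). Over the limma fits without 1 library, ALD1 ran from -0.01 to 0.99, EDS5 from -0.10 to 0.21, PAD4 from -0.04 to 0.27 and FMO1 from -0.17 to 0.03. None of these 4 genes was called in any setting. Causes were not tested. ALD1 rests on 9 to 22 recovered reads per library and PR1 on 14 to 95, which limits their precision. The 2 libraries per genotype limit every interval, and p-values measure only the spread between these libraries.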
